A study of Glycine max with 10 samples.

Results

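The transcripts described here were abundant in soybean embryonic axes 6 hours after imbibition and had dropped steeply 6 hours later. They were chosen on the measured values. A locus was taken when it had at least 10 FPKM at 6-HAI (hours after imbibition), when that value was at least 4 times the value at 12-HAI, when the value at 24-HAI lay under 2.4 times that at 12-HAI, and when the locus was not among the 100 with the highest value in dry seeds. These conditions were met by 73 of 54154 loci. The axes came from seeds of the cultivar BRS 284, taken dry or after 3, 6, 12 or 24 hours on wet cotton under 12 h of light and 12 h of dark, with 2 biological replicates of 20 seeds at each of the 5 time points and no other treatment. Time after imbibition and time of day cannot be told apart in such a series. FPKM (sequenced fragments per kilobase of a transcript, relative to all mapped fragments) was given as 1 value per locus and time point. How the 2 replicates entered this value is not stated. There is thus no replicate error for any value, and the comparisons are ratios without a test. The files hold FPKM and no read counts, and the mapped reads that the study lists per time point were not used here. Where a locus is described by 5 values, the dry value comes first and the others follow in the order 3, 6, 12 and 24-HAI.

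The embryonic axis carries the primordia of root and shoot, and it resumes growth when a mature seed takes up water. A dry seed holds messenger RNAs laid down during maturation, many of them for proteins of desiccation tolerance and dormancy, and these stored messengers are degraded over the course of germination while new transcription begins. A transcript that is plentiful at 6-HAI can thus be left over from the maturing seed, or can have been made since imbibition. The level in dry seeds is the measurement that bears on this, and the rule used it only to leave out the most abundant stored transcripts. The tissue label was not checked against markers, since no identifiers of markers of other seed tissues were at hand. In whole axes, fewer cells of a type and less RNA per cell cannot be told apart. The study's text names 34 loci with a role, and only Glyma13g07590, a LOB domain transcription factor, is among the 73. The RefSeq table used for names matched 0 of the 54154 identifiers, so the other 72 members are given by identifier and position in version 1.1 of the G. max genome, without a role and without sequence. Whether the positions count from 0 or 1 is not stated in the sources used here.

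Of the 12567 loci with at least 10 FPKM at 6-HAI, 82 (0.653%) were at least 4 times lower at 12-HAI, and 634 (5.04%) were at least 2.4 times lower. Of those 82 loci, 5 rose again by 2.4-fold or more until 24-HAI and 4 belonged to the 100 most abundant in dry seeds, which left the 73. The fall chose the members and is no finding in itself. The ratio of 6-HAI to 12-HAI ran from 4.01 to 20.9 with a median of 4.60, and in 48 members it lay between 4 and 5. On the log2 scale the median change of the members in this step was -2.20, and that of the other 12494 loci with at least 10 FPKM at 6-HAI was -0.27. The number of members depended on how the time points were scaled against each other, with 45 loci meeting the rule after median-ratio scaling and 24 after scaling to equal totals. Such scaling moved the median change of the other loci in this step to -0.15 and 0.08, and that of the members to -2.08 and -1.85.

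The limits cut through a continuous range of values. The members closest to the 4-fold limit were Glyma08g01601 with a ratio of 4.01, Glyma13g07590 with 4.07 and Glyma01g00930 with 4.08. Just outside it were Glyma14g27940 with a ratio of 3.97, Glyma11g16120 with 3.96 and Glyma11g05700 with 3.95. At the lower limit of 10 FPKM, Glyma13g16950, Glyma14g39800 and Glyma0247s50 were inside with 10.3, 11.1 and 11.5 FPKM at 6-HAI, and Glyma08g45520, Glyma13g01110 and Glyma19g42510 were outside with 9.68, 9.31 and 9.25 FPKM. The members with the largest rebound were Glyma13g16950, Glyma06g44380 and Glyma03g33340, whose values at 24-HAI were 1.97, 1.73 and 1.55 times those at 12-HAI. Outside that limit were Glyma10g01690, Glyma12g36703, Glyma17g07250 and Glyma06g05320 with 2.74, 3.61, 3.88 and 7.70 times, and Glyma14g14210, which was listed at 0 at 12-HAI. The 4 loci left out for their abundance, Glyma01g29480, Glyma05g33200, Glyma18g43320 and Glyma20g28550, had 1622 to 4543 FPKM in dry seeds and 7.61 to 14.0 FPKM at 24-HAI.

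The 73 transcripts reached their level at 6-HAI along different routes. In 28 of them (38.4%) the value at 6-HAI was at least 2.4 times that in dry seeds, against 1601 (12.8%) of the other loci with at least 10 FPKM at 6-HAI. These 28 are called induced here. The other 45 are called stored, since their dry value was more than the value at 6-HAI divided by 2.4. Both names stand for this fold limit only, and whether a transcript was left over or newly made was not measured. In 13 of the stored transcripts the dry value was itself at least 2.4 times that at 6-HAI, which is 17.8% of all members and was 7.75% among the other loci. The highest value fell in dry seeds for 28 members (38.4%), at 3-HAI for 14 (19.2%) and at 6-HAI for 31 (42.5%). Among the other loci these shares were 37.7, 29.2 and 7.96%, so that a maximum in dry seeds was about as frequent among the members as elsewhere. A maximum at 12-HAI or 24-HAI is barred by the rule. The value at 6-HAI enters both the rule and these shares, so they describe the members and are not independent of the choice. After scaling to equal totals, 14 of the 24 loci that met the rule (58.3%) were induced. The share of the other loci under that scaling was not counted. Their median log2 change from dry seeds to 6-HAI moved from -0.08 to 0.49 with it, so 58.3% cannot be set against 12.8%.

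**Figure D1:**
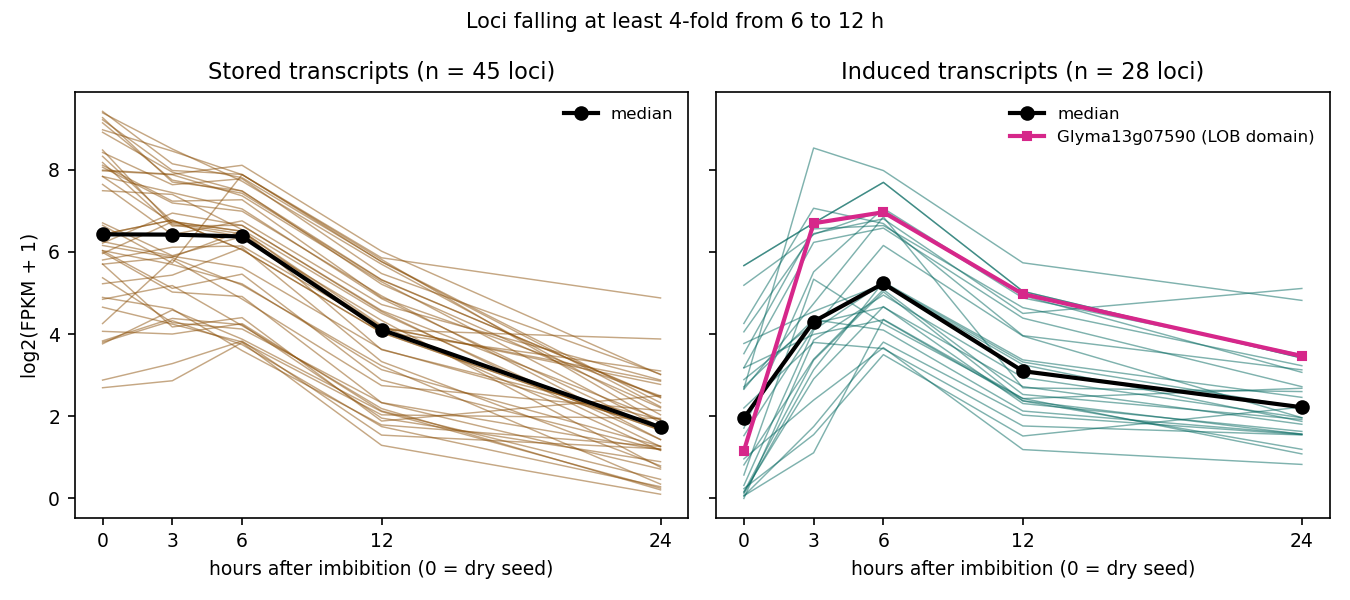
Transcription of the 73 members over time, as log2(FPKM + 1) against hours after imbibition, with the 45 stored transcripts on the left and the 28 induced on the right. Thin lines are single loci with 1 value per time point, the black line is their median, and the coloured line is the LOB domain gene Glyma13g07590. The stored transcripts start at a median of 84.9 FPKM and the induced at 2.94 FPKM, and both drop between 6 and 12 hours by the rule of choice.

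Stored transcripts with their highest value in dry seeds numbered 28. The most abundant of them was Glyma07g32030 on chromosome 7 from 36962459 to 36963427, with 683 FPKM before imbibition, followed by 281, 222, 53.3 and 4.02 FPKM. Its level had dropped 2.43-fold by 3-HAI, 1.27-fold further by 6-HAI, and then 4.17-fold and 13.3-fold in the next steps. Glyma06g02160 on chromosome 6 from 1428945 to 1429730 had 666 FPKM in the dry state and then 361, 209, 50.9 and 3.10 FPKM. Glyma07g32070, on chromosome 7 from 36987703 to 36988164, had 614 FPKM before imbibition, followed by 207, 178, 36.1 and 3.61 FPKM. In Glyma06g16490 on chromosome 6 from 12926962 to 12927793 transcription was 592 FPKM in the dry state and then 251, 235, 53.1 and 3.70 FPKM. The dry value of these 4 loci was 160.1 to 215 times that at 24-HAI. A dry value of at least 500 FPKM was found in 6 members (8.22%) and in 1.74% of the other loci, of which the 100 highest had no chance to be members.

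Others of these 28 ended lower still. Glyma19g40210, on chromosome 19 from 46651061 to 46652187, had 500.1 FPKM before imbibition, followed by 348, 234, 55.3 and 2.58 FPKM. Glyma04g02060 (on chromosome 4 from 1423030 to 1423695) had 355 FPKM in the dry state and then 100.5, 81.9, 19.1 and 0.691 FPKM, so that its dry value was 514 times that at 24-HAI, the largest such ratio among the members. Glyma19g40060, on chromosome 19 from 46536244 to 46537528, was less abundant at the start, with 70.3 FPKM before imbibition, followed by 56.9, 35.5, 8.37 and 0.274 FPKM, and showed the largest ratio of 12-HAI to 24-HAI, 30.6. Over the 28 loci the dry value had a median of 238 FPKM and ranged from 24.2 FPKM in Glyma04g00460 to 683 FPKM. At 24-HAI the median was 2.47 FPKM and the range 0.274 to 7.59 FPKM. The course before 6-HAI was uneven, for the median loss was 1.88-fold in the first 3 hours (a 3-HAI to dry ratio of 0.533) and the ratio of 6-HAI to 3-HAI had a median of 0.827. A loss of at least 2.4-fold by 3-HAI was seen in 7 members (9.59%) and in 1.36% of the other loci. In 21 of the 28 the value was lower at every step (28.8% of all members, against 25.2% of the other loci). Glyma06g03430 was among the other 7 and rose slightly from 3-HAI to 6-HAI, with 341 FPKM in the dry state and then 197, 218, 43.4 and 7.13 FPKM. Glyma06g44380, which spans only 162 bases, was the stored member with a value higher at 24-HAI than at 12-HAI, with 51.1 FPKM before imbibition, followed by 17.0, 20.1, 2.69 and 4.66 FPKM.

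The other 17 stored transcripts had their highest value after imbibition, 9 of them at 3-HAI and 8 at 6-HAI. Glyma13g30210 on chromosome 13 from 32933433 to 32934588 had the highest level of all members at 6-HAI, with 253 FPKM in the dry state and then 236, 274, 63.7 and 7.06 FPKM, and its values up to 6-HAI were close to each other. Glyma10g28900, on chromosome 10 from 37792457 to 37793840, dipped and recovered, with 99.0 FPKM before imbibition, followed by 52.0, 234, 56.9 and 28.4 FPKM. Its 4.51-fold rise from 3-HAI to 6-HAI was the only one of at least 2.4-fold among the stored members. Its value at 6-HAI was 2.37 times the dry value, just under the limit of 2.4 for the induced. Glyma14g17660, on chromosome 14 from 19437633 to 19438373, was low throughout and ended under 0.1 FPKM, with 5.47 FPKM in the dry state and then 6.28, 12.9, 1.45 and 0.0742 FPKM. Glyma06g03420 and Glyma13g36400 belonged to the same group. The former had 51.0 FPKM before imbibition, followed by 57.5, 90.0, 11.3 and 2.77 FPKM. The latter, on chromosome 13 from 37700275 to 37701293, had 36.4 FPKM in the dry state and then 42.2, 67.4, 9.05 and 0.734 FPKM. Of the 9 with a maximum at 3-HAI, Glyma04g04470 on chromosome 4 from 3327498 to 3329302 fell furthest, with 27.7 FPKM before imbibition, followed by 35.2, 17.4, 3.55 and 0.156 FPKM, a 226-fold drop between 3-HAI and 24-HAI.

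Among the induced transcripts, the one with a known role is Glyma13g07590 on chromosome 13 from 7785521 to 7787616. LOB (lateral organ boundaries) domain proteins are transcription factors found in plants, and in Arabidopsis members of the family act where organs separate from meristems and in the formation of lateral roots. Glyma13g07590 had 1.23 FPKM in the dry state and then 103, 124, 30.4 and 10.04 FPKM. The dry value was exceeded 100.4-fold at 6-HAI, most of it reached by 3-HAI (a ratio of 1.21 between these times), and the drop to 12-HAI was 4.07-fold, close to the limit of the rule. This drop was 3.98-fold with a pseudocount of 1 and 3.75-fold after median-ratio scaling. It was 3.35-fold after quantile normalization and 3.20-fold with equal totals. Glyma13g07590 is thus a member with the values as deposited and did not meet the rule under these alternatives. The other LOB domain gene that the study names, Glyma07g10180 on chromosome 7, had 1.70 FPKM before imbibition, then 96.0, 75.03, 34.1 and 19.1 FPKM. It came up to a similar level by 3-HAI but was already falling at 6-HAI, and its ratio of 6-HAI to 12-HAI was 2.20.

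The profiles most like that of Glyma13g07590 among the members, by Pearson's r of log2(FPKM + 1) over the 5 time points, belonged to Glyma13g37760 (0.985), Glyma18g00630 (0.985), Glyma01g32360 (0.984), Glyma16g04210 (0.968) and Glyma12g34701 (0.949). With 5 values from the same libraries these coefficients are descriptions. Glyma18g00630, on chromosome 18 from 266878 to 268791, was the most abundant of the induced members, with 5.38 FPKM before imbibition, followed by 367, 251, 52.2 and 27.2 FPKM. Glyma16g04210 on chromosome 16 from 3565394 to 3566131 kept rising until 6-HAI, with 2.27 FPKM in the dry state and then 44.6, 132, 29.6 and 7.39 FPKM. The other 3 started under 1 FPKM. Glyma13g37760 was listed at 0 in dry seeds and then had 13.4, 29.9, 6.68 and 2.90 FPKM. Glyma01g32360, on chromosome 1 from 43828912 to 43832736, had 0.247 FPKM before imbibition, followed by 16.1, 36.8, 8.98 and 3.65 FPKM. Glyma12g34701, on chromosome 12 from 37854218 to 37855159, had 0.118 FPKM in the dry state and then 9.29, 31.6, 4.17 and 1.29 FPKM.

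All 28 induced members were above their dry value at 3-HAI, 23 of them by at least 2.4-fold. Of all members, 24 (32.9%) had risen that much by 3-HAI, and 10.1% of the other loci had. In 23 of the 28 the maximum was at 6-HAI and in 5 at 3-HAI. A rise of at least 2.4-fold from 3-HAI to 6-HAI was seen in 12 members (16.4%), 11 of them induced, and in 379 (3.03%) of the other loci. Among other loci that were induced by the same definition this share was 22.2%, against 39.3% of the induced members. None of the 73 was at least 2.4 times lower at 6-HAI than at 3-HAI. Only 0.304% of the other loci were, so nothing particular to the members is read from this. The rule favours high values at 6-HAI, and the shares that use this value are not independent of the choice.

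The latest rises were steep. Glyma12g05200, on chromosome 12 from 3477000 to 3477531, had 0.0463 FPKM before imbibition, followed by 1.16, 19.5, 4.41 and 1.12 FPKM, and its 16.8-fold increase between 3-HAI and 6-HAI was the largest among the members. Glyma13g32160, on chromosome 13 from 34408016 to 34409446, had 0.0430 FPKM in the dry state and then 2.36, 13.0, 3.08 and 1.94 FPKM, a 5.50-fold rise in that step. Glyma13g16950, on chromosome 13 from 20811387 to 20813635, had 0.180 FPKM before imbibition, followed by 1.93, 10.3, 1.87 and 3.67 FPKM, and was the lowest member at 6-HAI. In these 3 loci the values at 3-HAI and 12-HAI both lay under 5 FPKM. Glyma08g01601, on chromosome 8 from 1004982 to 1005583, had 0.0815 FPKM in the dry state and then 7.75, 37.5, 9.35 and 4.50 FPKM. At the other end, Glyma17g07280 on chromosome 17 from 5312962 to 5314439 had passed its peak before 6-HAI, with 0.485 FPKM before imbibition, followed by 39.3, 18.1, 4.39 and 5.41 FPKM. It had the largest ratio of 3-HAI to 6-HAI, 2.18, and it rose 1.23-fold from 12-HAI to 24-HAI. Of the 28 induced members, 11 were under 1 FPKM in dry seeds, and their ratios to the dry value rest on such low values.

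The drop from 6-HAI to 12-HAI itself also varied among the members. Glyma02g42770, on chromosome 2 from 47745851 to 47747189, had 5.31 FPKM in the dry state and then 25.7, 114, 5.46 and 5.07 FPKM. Its 20.9-fold drop was far larger than that of any other member, and it returned in this step to the level of the dry seed. The next largest ratios were 9.15 in Glyma20g19630 and 8.86 in Glyma14g17660, with 11.7 and 12.9 FPKM at 6-HAI. With a pseudocount of 1 these ratios were 5.58 and 5.66, below those of Glyma06g03420 (7.41), Glyma13g36400 (6.81), Glyma13g01140 (6.62) and Glyma12g34701 (6.30), so their place in the order rests on their low values at 12-HAI. Glyma20g19630, on chromosome 20 from 27706477 to 27706935, had 0.949 FPKM before imbibition, followed by 4.25, 11.7, 1.28 and 0.776 FPKM. Glyma13g01140, on chromosome 13 from 857863 to 859396, had 18.1 FPKM in the dry state and then 132, 102, 14.6 and 7.75 FPKM, a 7.01-fold drop. Glyma11g05540, on chromosome 11 from 3888209 to 3889391, had 6.36 FPKM before imbibition, followed by 8.72, 13.2, 1.91 and 1.31 FPKM, a 6.91-fold drop. Glyma04g40710, on chromosome 4 from 46668383 to 46668625, had 62.4 FPKM in the dry state and then 31.5, 29.1, 4.04 and 1.27 FPKM, a 7.22-fold drop. The 10 largest ratios, from 6.91 upwards, belonged to 6 stored and 4 induced members, and over all members the median ratio was 4.52 for the stored and 4.76 for the induced.

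After 12-HAI the classes parted. A further fall of at least 2.4-fold to 24-HAI was found in 49 members (67.1%) and in 1911 (15.3%) of the other loci. It concerned 37 of the 45 stored members (82.2%) and 12 of the 28 induced (42.9%), against 16.4% and 7.56% of the other loci split in the same way. The rule used the value at 12-HAI for the 4-fold fall, and the values at 12-HAI and 24-HAI to bar a strong rebound. These shares are thus not independent of the choice. The ratio of 12-HAI to 24-HAI had a median of 8.18 in the stored and 2.19 in the induced members. The 3 largest ratios belonged to stored transcripts, Glyma19g40060, Glyma04g02060 and Glyma04g04470, with 30.6, 27.7 and 22.8. Across the 73 members the rank correlation of the dry value with the ratio of 12-HAI to 24-HAI was 0.60, and that with the ratio of 6-HAI to 12-HAI was -0.15. These are descriptions across loci that share libraries.

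**Figure D2:**
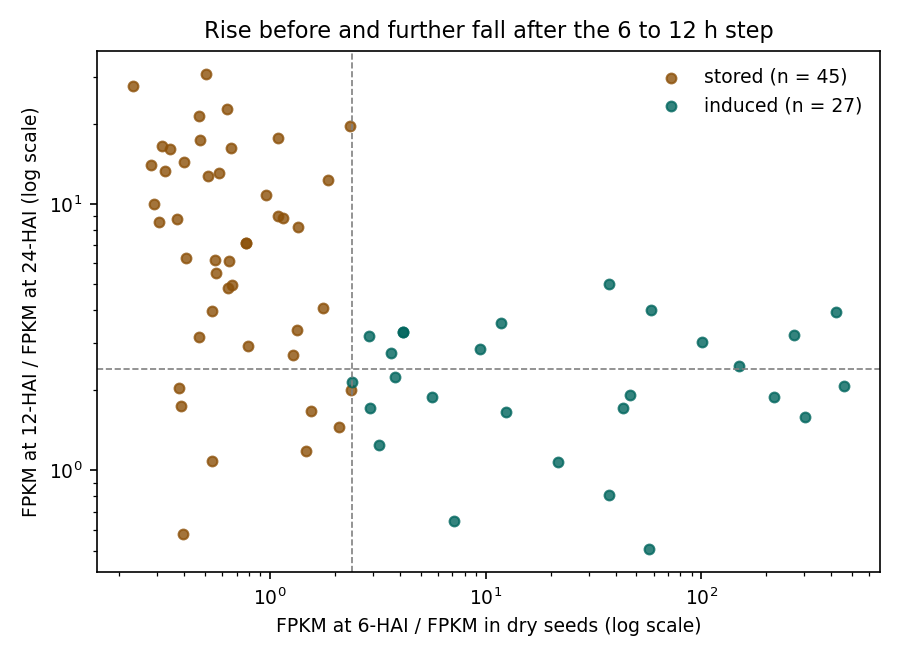
Ratio of FPKM at 6-HAI to dry seeds (horizontal) against the ratio of 12-HAI to 24-HAI (vertical), both on log scales, for 72 members. Glyma13g37760, listed at 0 in dry seeds, is left out, points are single loci, and dashed lines mark 2.4-fold. Stored transcripts reach ratios of 30.6 on the vertical axis, while induced transcripts stay at or under 4.99.

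All 45 stored members were at least 2.4 times lower at 24-HAI than in dry seeds, with a median ratio of 49.6, and 10 of them (22.2%) were under 1 FPKM at 24-HAI, against 0.672% of the other loci. Of all members 52 (71.2%) were lower than in dry seeds by this measure, and 36.1% of the other loci. The stored class requires a dry value that is not far under the level before the fall. The rule requires a steep fall by 12-HAI and bars a strong rebound by 24-HAI. These counts and shares are thus favoured by the definitions and are not independent of the choice. Of the induced members, 13 (17.8% of the 73, against 15.5% of the other loci) were still at least 2.4 times above their dry value at 24-HAI, while 7 were at least 2.4 times below it. The former include Glyma13g07590, with 10.04 FPKM against 1.23 FPKM. The latter include Glyma11g08260 and Glyma11g08275, which share all values. A higher value at 24-HAI than at 12-HAI was found in 4 members (5.48%), Glyma03g33340, Glyma17g07280, Glyma13g16950 and Glyma06g44380, and in 34.0% of the other loci. The rule bars rises of 2.4-fold or more, which 2.72% of the other loci showed. Glyma03g33340, on chromosome 3 from 40943058 to 40946255, had 15.6 FPKM before imbibition, followed by 86.1, 111, 21.6 and 33.5 FPKM, the highest level of any member at the end of the series.

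Summed over the 73 members, the values were 8757 FPKM before imbibition, then 6345, 6305, 1316 and 336 FPKM. The stored members accounted for 8514 FPKM of the sum in dry seeds and 4296 at 6-HAI, and the induced members for 243 and 2009. Over the same time points the sum over all loci fell from 1032950 FPKM in dry seeds to 838321, 692415 and 544019 FPKM, and stood at 596044 FPKM at the end. The share of the members in it was 0.848% before imbibition, then 0.757, 0.911, 0.242 and 0.0564%. Loci with identical values, described below, are each counted in these sums, among the members and among all loci.

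The same size of fall was rarer an interval earlier and more frequent an interval later. From 3-HAI to 6-HAI, 9 loci with at least 10 FPKM at the start fell 4-fold or more, and from 12-HAI to 24-HAI 595 did. Neither set leaves out the loci with the highest dry values or those that rebound, and the count from 6-HAI to 12-HAI without these limits was 82. The intervals last 3, 6 and 12 hours, so these counts do not compare rates. The median change of the stored members per hour, on the log2 scale, was -0.13, -0.08, -0.36 and -0.25 in the 4 successive intervals. In the 595 loci that fell in the last interval it was -0.14, -0.23, -0.18 and -0.22. The sets overlap, since 24 of the 595 are members, and without these the values were -0.14, -0.24, -0.17 and -0.22. Of the 571 loci that were not members, 38 (6.65%) were induced from dry to 6-HAI and 9.11% were higher at 6-HAI than at 3-HAI, against 38.4% and 52.1% of the members. The value at 6-HAI enters both shares and was used to choose only the members, so the shares are not independent of the choice. The choice also fixes a steep step in each set, and the difference between the sets was not tested because there are no replicate values.

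The members are short loci. From annotated start to end they span 129 to 5365 bases, with a median of 1156, and the other loci with at least 10 FPKM at 6-HAI have a median of 3883 bases. The stored members have a median of 1019 and the induced of 1451 bases, and the loci falling in the last interval of 2394. Of the loci spanning 4000 bases or more, 2 of 6031 (0.0332%) met the rule. The share was 0.217% from 2000 to under 4000 bases, 1.85% from 1000 to under 2000, 3.67% from 300 to under 1000 and 7.55% (8 of 106) under 300 bases. A fall of 2.4-fold or more from 6-HAI to 12-HAI followed the same order, with 0.962% of the longest and 25.5% of the shortest class. Rises of that size were seen in 0.348% of the longest class, in 0.818, 0.802 and 0.917% of the next shorter classes and in 0% of the 106 shortest loci. From 12-HAI to 24-HAI, falls of 2.4-fold or more were seen in 30.2, 31.8, 21.6, 14 and 13.1% from the shortest to the longest class. More frequent falls of short loci were thus not particular to the step from 6-HAI to 12-HAI. The span includes introns, and the length of the spliced transcript was not used here.

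**Figure D3:**
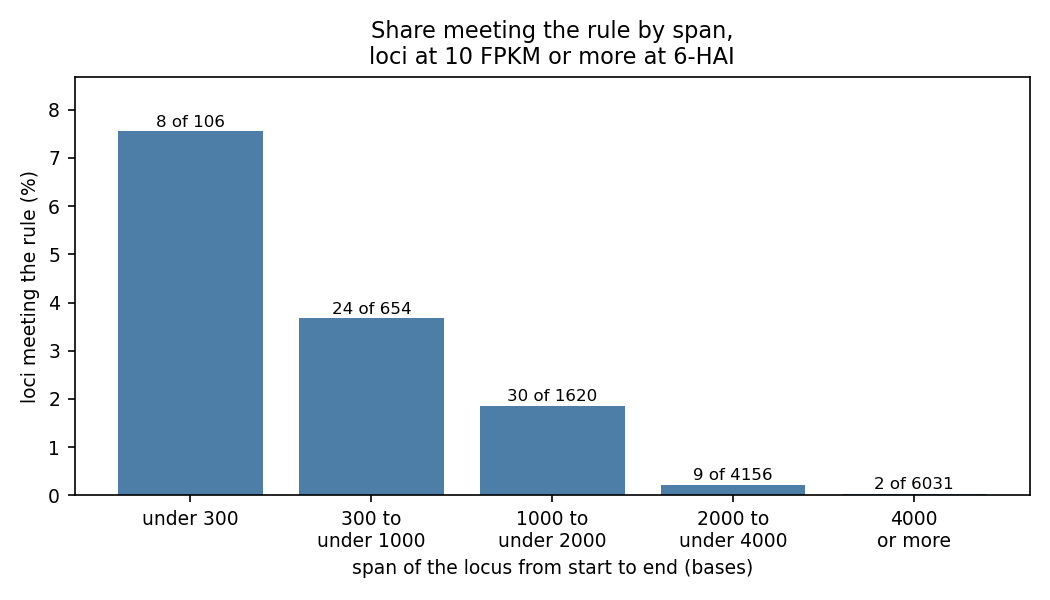
Share of loci that met the rule (vertical axis, percent) by the span of the locus in bases (horizontal axis), among loci with at least 10 FPKM at 6-HAI. Numbers above the bars give members and loci, from 8 of 106 under 300 bases to 2 of 6031 at 4000 bases or more.

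The 8 members under 300 bases are Glyma20g10840, Glyma13g25530, Glyma13g25520, Glyma14g39800, Glyma0247s50, Glyma06g44380, Glyma04g40710 and Glyma13g37760, with 129 to 273 bases, and 0.784% of the other loci are as short. Without them, a choice made after the values were seen, 65 members remained, of which 26 were induced and 46 fell further by 24-HAI. The part of length in the fall was not tested.

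Members lay on 19 of the chromosomes and on 1 scaffold. Chromosome 13 carried 12 of them, 1.43% of its loci with at least 10 FPKM at 6-HAI, followed by chromosome 20 with 7 (1.23%) and chromosome 6 with 7 (0.894%), while chromosome 8 carried 1 (0.104%). Over the whole genome, 73 of 12567 loci at that level were members, and the differences between chromosomes were not tested. Of the members 35 (47.9%) were on the plus and 38 on the minus strand, and 50.1% of the other loci were on the plus strand. In 9 places, 19 members lay within 100 kb of another member. How often other loci lie as close to each other was not counted, so no clustering is read from this. The closest group of 3 was on chromosome 7, where Glyma07g32030, Glyma07g32070 and Glyma07g32110 lie within 39.2 kb, all 3 of them stored. Glyma07g32110 had 288 FPKM in the dry state and then 98.0, 99.1, 22.4 and 1.40 FPKM, a course similar to that of the other 2 at a lower level. The group is not unbroken, since 6 other loci lie between its outer members and 2 of these fell at least 2.4-fold.

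Some of these neighbours cannot be counted as separate observations. Glyma11g08260 and Glyma11g08275, on chromosome 11 from 5858172 to 5860046 and from 5860216 to 5865580, share the values of 49.8 FPKM before imbibition, followed by 103, 205, 31.9 and 9.67 FPKM. Glyma20g35650 and Glyma20g35660, on chromosome 20 from 43885841 to 43886419 and from 43887556 to 43890742, share 84.9 FPKM in the dry state and then 108, 65.3, 15.4 and 2.16 FPKM. The measured transcription of such a pair cannot be assigned to either locus. Values identical to those of another locus were found in 4 members (5.48%). They were more frequent among the other loci with at least 10 FPKM at 6-HAI, with 2524 (20.2%). Glyma13g25520 and Glyma13g25530, on chromosome 13, are 135 and 129 bases long and lie within 282 bases. Glyma13g25520 had 103 FPKM before imbibition, followed by 59.0, 81.6, 17.1 and 5.84 FPKM. Glyma13g25530 had 198 FPKM in the dry state and then 84.5, 107, 25.3 and 6.36 FPKM. With 1 locus for each set of identical values, 71 members remained. Glyma06g14000 has an entry on each strand of the same interval, and its minus strand entry was far lower, with 18.9 FPKM before imbibition and 4.46 FPKM by 6-HAI, against 266 and 126 FPKM for the entry used.

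Other groups had distinct values. On chromosome 6, Glyma06g03420 and Glyma06g03430 lie within 5.4 kb with no locus between them, and Glyma06g14000 and Glyma06g14090 within 70.3 kb. Glyma06g14000 had 266 FPKM before imbibition, followed by 145, 126, 29.4 and 1.70 FPKM. Glyma06g14090 had 227 FPKM in the dry state and then 103, 85.6, 15.5 and 7.59 FPKM. Both were stored, and they differed after 12-HAI, when the former fell 17.3-fold and the latter 2.04-fold. On chromosome 16, Glyma16g04150 and Glyma16g04210, both induced, lie within 32.3 kb on opposite strands. Glyma16g04150 had 10.5 FPKM before imbibition, followed by 93.2, 98.7, 24.0 and 8.38 FPKM, and it had nearly reached its maximum by 3-HAI, where Glyma16g04210 had not. Glyma13g32070, within 64.4 kb of Glyma13g32160 on chromosome 13, had 0.113 FPKM in the dry state and then 6.504, 24.4, 3.96 and 2.098 FPKM. On chromosome 2, Glyma02g42627 and Glyma02g42770 are 85.9 kb apart at most and belong to different classes. Glyma02g42627 had 12.6 FPKM before imbibition, followed by 23.0, 13.7, 3.33 and 0.189 FPKM.

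The loci directly beside the members were examined in the same way. Of 136 such flanking loci, 38 were under 1 FPKM throughout, and 47 had at least 10 FPKM at 6-HAI. Of these 47, 10 (21.3%) fell at least 2.4-fold from 6-HAI to 12-HAI, and 561 (4.49%) of all other loci at that level did. The flanking loci are shorter too, with a median span of 2648 bases, and all 10 that fell span less than 2000 bases. Among loci under 2000 bases the shares were 10 of 21 flanking loci (47.6%) and 15.2% of the other loci. No flanking locus of 2000 bases or more fell by this measure (0 of 26), and 2.05% of the other loci of that span did.

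In 9 of the 10 pairs the flanking locus lies on the same strand as the member, from 1108 to 2905 bases away, and in the other pair the gap is 44560 bases. Both loci were stored in 4 pairs and both induced in 4. Glyma11g13140, on chromosome 11 from 9363561 to 9364570, had 1.88 FPKM in the dry state and then 16.7, 70.2, 14.5 and 2.90 FPKM. Its neighbour Glyma11g13130 had 16.7 FPKM before imbibition, then 85.8, 215, 76.6 and 20.5 FPKM, also with its maximum at 6-HAI, but with a 2.81-fold drop to 12-HAI against 4.85-fold in the member. Beside Glyma12g05200, the locus Glyma12g05190 had 0.461 FPKM in the dry state and then 17.1, 63.0, 17.8 and 4.06 FPKM. Beside Glyma13g37760, Glyma13g37750 had 0.596 FPKM and then 43.1, 87.1, 32.8 and 9.22 FPKM. How often the other flanking loci lie as close to their member, on its strand or in its class was not counted. Nothing particular to the 10 pairs is thus read from these counts. The part of distance and strand in the shared fall was not tested.

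**Figure D4:**
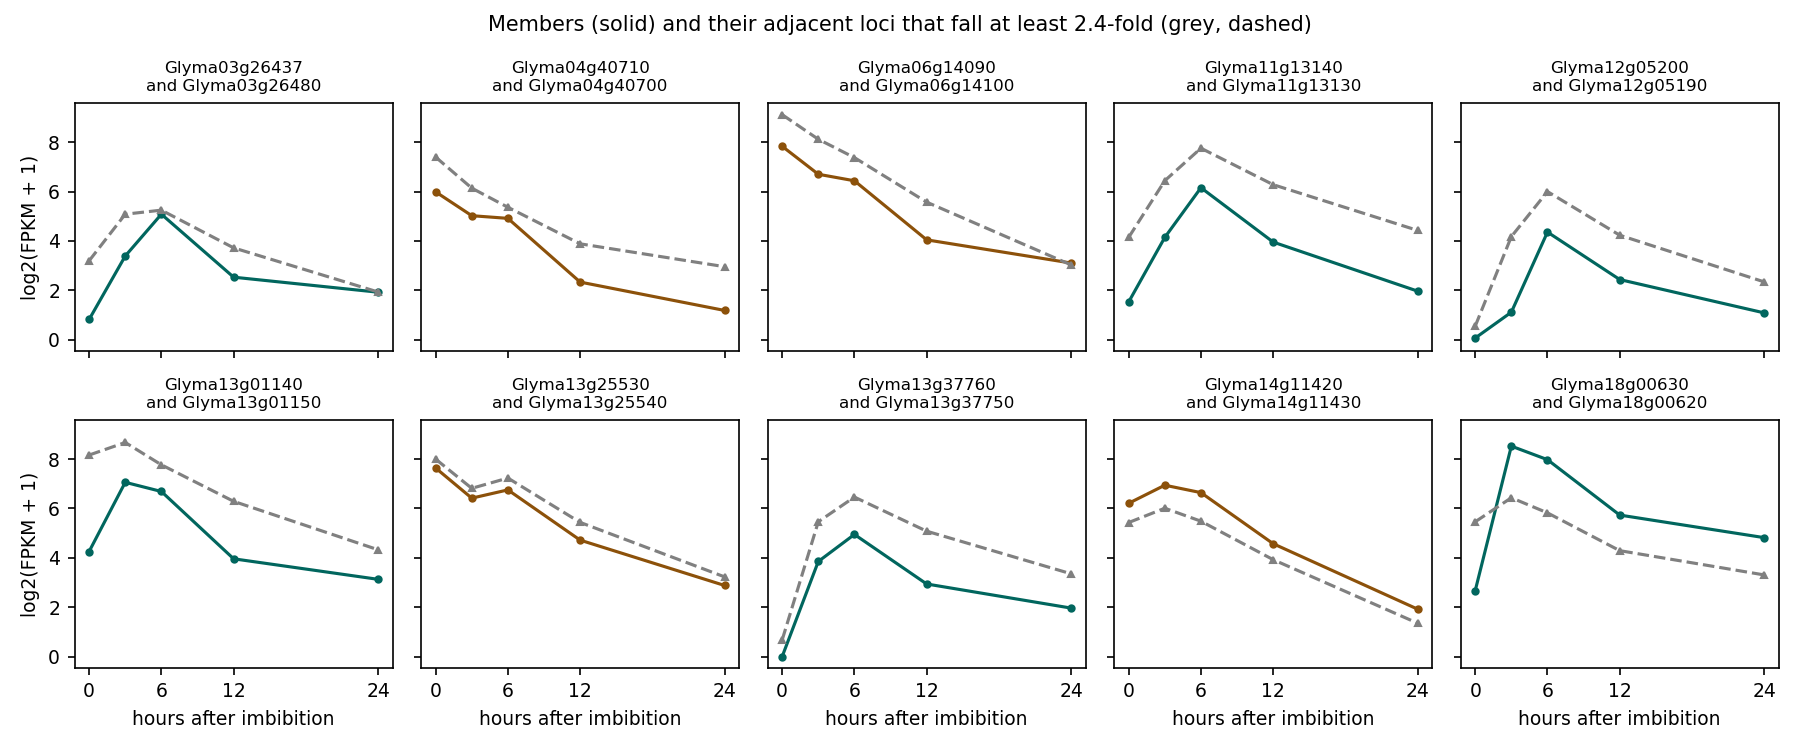
Members (solid lines, brown for stored and green for induced) and the adjacent locus that fell at least 2.4-fold from 6-HAI to 12-HAI (grey, dashed), as log2(FPKM + 1) against hours after imbibition, 1 value per time point. In 8 of the 10 pairs both loci belong to the same class, and the exceptions are the pairs of Glyma13g01140 and Glyma18g00630. How often the other flanking loci share the class of their member was not counted.

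The genes for which the study gives a role set a frame for this step. Of the 34, 25 had at least 10 FPKM at 6-HAI, 3 fell at least 2.4-fold from 6-HAI to 12-HAI and 4 rose as much, and the median ratio of 6-HAI to 12-HAI was 1.13. Besides Glyma13g07590, the nearest to the rule was Glyma11g36730 on chromosome 11, a xyloglucan endotransglucosylase, an enzyme that cuts and rejoins xyloglucan in growing cell walls. It had 1.36 FPKM before imbibition, then 105, 65.9, 18.3 and 14.5 FPKM, and its ratio of 3.61 kept it out. The third was Glyma01g43460 on chromosome 1, a protein phosphatase of the abscisic acid response (HAI3), with 295 FPKM in the dry state and then 139, 87.1, 29.5 and 2.43 FPKM. Its course is that of the stored members with a smaller step, 2.96-fold, in this interval.

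By group, the genes of abscisic acid, the hormone that maintains seed dormancy, were higher at 6-HAI than at 12-HAI in 7 of 8 cases, under each of the 3 other scalings as well. Of the other loci with at least 10 FPKM at 6-HAI, 73.9% were higher at 6-HAI as deposited and 42.9% after scaling to equal totals, and with 8 genes nothing particular to the group is read from its count. Only 1 of the 8 fell 2.4-fold, and none after scaling to equal totals. The exception in direction was the CYP707A1 gene Glyma16g20490, whose product inactivates the hormone, which went from 0.160 to 3.04 FPKM in this step. The CYP707A2 gene Glyma09g41960, whose product has the same function, went from 66.7 to 31.5 FPKM. The seed transcription factor genes ABI3, Glyma08g47240 and Glyma18g38490, had ratios of 1.94 and 1.91 in this interval. Among 7 protein kinases none fell 2.4-fold, and their ratios ran from 0.569 to 1.90, with 5 higher at 6-HAI as deposited but 2 after scaling to equal totals. Among 10 genes of the shikimate and chorismate routes, which lead to aromatic amino acids and folate, 3 were higher at 6-HAI (2 after scaling to equal totals) and none fell 2.4-fold, with ratios up to 1.75. The 3 transcription factor genes, with Glyma13g07590 at the top, had ratios from 1.59 to 4.07, the lowest in the ethylene response factor Glyma02g08835.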

How the data were processed

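RNA-Seq libraries of embryonic axes were made by the authors from 2 biological replicates of 20 seeds at each of 5 time points. They trimmed the reads with Trimmomatic (0.30), mapped them with TopHat (2.0.9) and Bowtie (2.1.0) to version 1.1 of the G. max genome, and estimated transcription with Cufflinks. The deposited values are FPKM, 1 per locus and time point, and how replicates were combined is not stated. The table holds no read counts and no separate replicate values, so no p-value could be given, and the mapped reads that the study lists per time point were not used here.

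Of 54801 entries, 647 loci have 2, and the entry with the higher maximum was used. The members were found by the rule given in the report, and other changes were counted at 2.4-fold with the higher value at 1 FPKM or more and no pseudocount. Members and lists were chosen with earlier results of these data known. Named members were those at the limits, at the extremes of level and ratio, within 100 kb of each other, or most like the LOB domain gene. Flanking loci, Glyma11g13140, Glyma04g00460, Glyma20g10840 and the loci left out for abundance or rebound beyond the 3 nearest were named outside this rule after their values were seen, and genes with a role are those the study's text gives. Alternatives were pseudocounts of 1 and 0.1, median-ratio scaling, quantile normalization, equal totals, other minimums (none, 5 and 20 FPKM) and fold limits (3 and 5), and other counting of loci. The rule was tested on simulated data, which checks only that its limits were applied as described. Python (3.11.15) with pandas (2.3.3), numpy (2.4.6) and, for plots, matplotlib (3.10.9) was used. No column belonged to an unmapped time point.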

Additional observations from a re-analysis of the deposited data

How the results depend on the processing

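As reported, there were 73 members, of which 28 were induced, 12 rose from 3-HAI to 6-HAI and 49 fell further after 12-HAI. The number of members moved by over 1.5 times under 5 of 13 alternatives, and the number induced under 4 of 8. After median-ratio scaling 45 loci met the rule, all among the 73, with 18 induced and 28 falling further. With equal totals 24 did, with 14 induced and 13 falling further. A pseudocount of 1 left 16 induced among 53. Without a minimum at 6-HAI 442 loci met the rule. A 3-fold limit gave 222 loci, of which 62 were induced, 2 were lower at 6-HAI than at 3-HAI (0 of the 73), 26 rose from 3-HAI to 6-HAI and 157 fell further, and a 5-fold limit gave 25 loci. Quantile normalization gave 75 loci, 50 of them among the 73. The ratio of 6-HAI to 12-HAI stayed above 3 in all 47 members named by rule under each scaling and with a pseudocount of 1. The rule had chosen these members on this ratio. Median-ratio scaling and equal totals change it by the same factor in all loci, so for them this result was fixed in advance. That the 45 loci lie among the 73 follows largely in the same way. Glyma13g07590 did not meet the rule under any of the scalings or with a pseudocount of 1. No paired analysis was possible because the values hold no separate replicates, and no replicate could be left out for the same reason. Without read counts, the precision of values under 1 FPKM was not estimated.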
